A study of Mus musculus with 18 samples.

Results

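Insulin, its companion hormone amylin and the regulators that mark a beta cell were followed in a line of glucagon-producing alpha cells. The 8 genes were selected by name, with no threshold on their values. They are the insulin genes Ins1 and Ins2, the amylin gene Iapp, the transcription factors Mafa, Nkx6-1 and Pdx1, the glucose transporter gene Slc2a2 and the urocortin gene Ucn3. They are 8 of the 55487 genes in the deposited tables. All groups were AlphaTC1 cells, a murine alpha cell line, so all replicates come from 1 line. In experiment 1, 5 days after transduction, 3 libraries carried the shRNA against Smndc1, a splicing factor (knockdown cells), and 3 carried the Empty Vector Control (empty-vector cells). Experiment 2 added RIP-mCherry to all cells, in which the rat insulin promoter drives a fluorescent protein. Cells with the Smndc1 shRNA were sorted into mCherry-positive (4 libraries) and mCherry-negative (4 libraries) populations, and 4 libraries came from Empty Vector + RIP-mCherry cells, here called reporter controls. The day of experiment 2 is not labelled, nor whether the reporter controls went through the sort. Separate cultures are not stated for the replicates either, so each p-value reflects library-to-library spread that may be purely technical.

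Beta cells make insulin from a preprohormone that is cut in the secretory granule, and they release amylin with it. Pdx1, Nkx6-1 and Mafa bind the control regions of beta cell genes, with Mafa a late factor of mature beta cells. Rodents carry an ancestral insulin gene, Ins2, and a copy of it, Ins1, while alpha cells make glucagon from Gcg.

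The genes lie apart on the GRCm38 genome, and no exonic base of any of the 8 overlaps another annotated gene. Ins2 (ENSMUSG00000000215) spans chromosome 7, 142678656 to 142743381, and Ins1 (ENSMUSG00000035804) spans chromosome 19, 52264297 to 52265476. Iapp (ENSMUSG00000041681) lies on chromosome 6, 142298423 to 142303961, and Mafa (ENSMUSG00000047591), a gene of 1 exon, on chromosome 15, 75745490 to 75748228. The annotated Ins1 and Ins2 transcripts share no stretch of 75 bases, the read length, and the longest stretch they share is 56 bases. The tables cannot show whether any transcript of the reporter was counted under Ins1 or Ins2.

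The promoters of Ins1 and Iapp are shown because both hormone genes were higher in mCherry-positive cells than in reporter controls. Each line gives the 250 bases before the RefSeq start (GRCm38.p6), 5′ to 3′ on the plus strand, which is the strand of both genes: chr19:52264047-52264296 for Ins1 and chr6:142298175-142298424 for Iapp. Capitals mark TAAT, the core bound by homeodomain factors such as Pdx1 and Nkx6-1, on either strand (ATTA where it lies on the minus strand), and CATCTG, an E-box, searched on both strands.
Ins1: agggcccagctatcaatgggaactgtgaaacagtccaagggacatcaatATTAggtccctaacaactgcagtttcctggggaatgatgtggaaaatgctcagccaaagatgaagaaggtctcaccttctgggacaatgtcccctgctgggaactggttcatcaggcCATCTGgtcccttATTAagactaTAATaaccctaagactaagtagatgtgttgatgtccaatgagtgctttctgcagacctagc
Iapp: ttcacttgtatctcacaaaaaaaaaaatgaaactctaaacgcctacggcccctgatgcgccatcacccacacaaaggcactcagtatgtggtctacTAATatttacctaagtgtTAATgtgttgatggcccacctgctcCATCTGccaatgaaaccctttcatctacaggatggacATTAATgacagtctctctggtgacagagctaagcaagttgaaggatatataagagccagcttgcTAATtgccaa
The Ins1 window holds 3 TAAT matches and 1 CATCTG. The Iapp window holds 5 TAAT matches, a pair of which overlap each other on opposite strands (ATTAAT), and 1 CATCTG, and no TAAT overlaps a CATCTG. Of 32851 promoter windows of this length, 54.9% hold TAAT, 17.3% hold 3 or more, 14.4% hold CATCTG and 8.91% hold both. The table had entries for 6 of the 8 genes, without Ins2 and Mafa. The Ucn3 window holds 2 TAAT and 1 CATCTG, and the Slc2a2 window 1 TAAT. The windows of Nkx6-1 and Pdx1 hold neither, but the first lies wholly and the second partly inside the annotated span of its gene. A match is a description of these letters and does not show that a factor binds there.

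Total counts per library lay between 37233208 and 66676008 in experiment 1. In experiment 2 they lay between 34045268 and 48138634 in mCherry-positive cells, between 8084574 and 80757285 in mCherry-negative cells and between 49345067 and 103048766 in reporter controls. Smndc1 had 10.4, 9.52 and 10.5 CPM (counts relative to the TMM-scaled library total) in knockdown cells, against 41.9, 40.2 and 35.1 CPM in empty-vector cells. It had 16.6, 22.4, 16.0 and 25.2 CPM in mCherry-positive cells, 23.9, 43.4, 36.3 and 44.6 CPM in mCherry-negative cells, and 37.6, 54.9, 39.3 and 46.3 CPM in reporter controls, with negative and control values overlapping. The mCherry-negative libraries were uneven, with 4.53, 18.6, 161 and 45.4 CPM of Rn7sk, a non-polyadenylated RNA, in replicates 1 to 4, against 2.44 to 4.68 CPM in mCherry-positive cells and 5.24 to 14.2 CPM in reporter controls. Replicate 1 lay within the positive range, and replicate 3, the highest, had the lowest total. The alpha label held in every group: Gcg averaged at least 5114 CPM, the mean of empty-vector cells. The summed alpha markers (9 genes) lay at 6835 to 9245 CPM in knockdown and 4488 to 7461 CPM in empty-vector cells. Gc, an alpha marker of islets, was at 0 counts in all groups. Delta and PP cell markers never summed above 0.357 CPM in a library.

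Per length, a transcription factor and not a hormone led the 8 genes. Nkx6-1, a homeodomain factor, had the highest deposited FPKM in every group, with means of 14.2 FPKM in knockdown, 18.1 in empty-vector, 21.2 in mCherry-positive, 20.7 in mCherry-negative and 18.4 in reporter-control cells, and its range overlapped no other gene's. Ins2 came next in 4 groups, with 2.06 FPKM in knockdown, 7.65 in mCherry-positive, 2.07 in mCherry-negative and 1.32 in reporter-control cells. In the reporter controls the ranges of Ins2 and Mafa overlapped. In empty-vector cells Mafa (0.409 FPKM) stood above Ins2 (0.217 FPKM), again with overlapping ranges. Slc2a2, Ucn3 and Pdx1 reached at most 0.154 FPKM in a library, that of Ucn3 in empty-vector replicate 3.

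**Figure D1:**
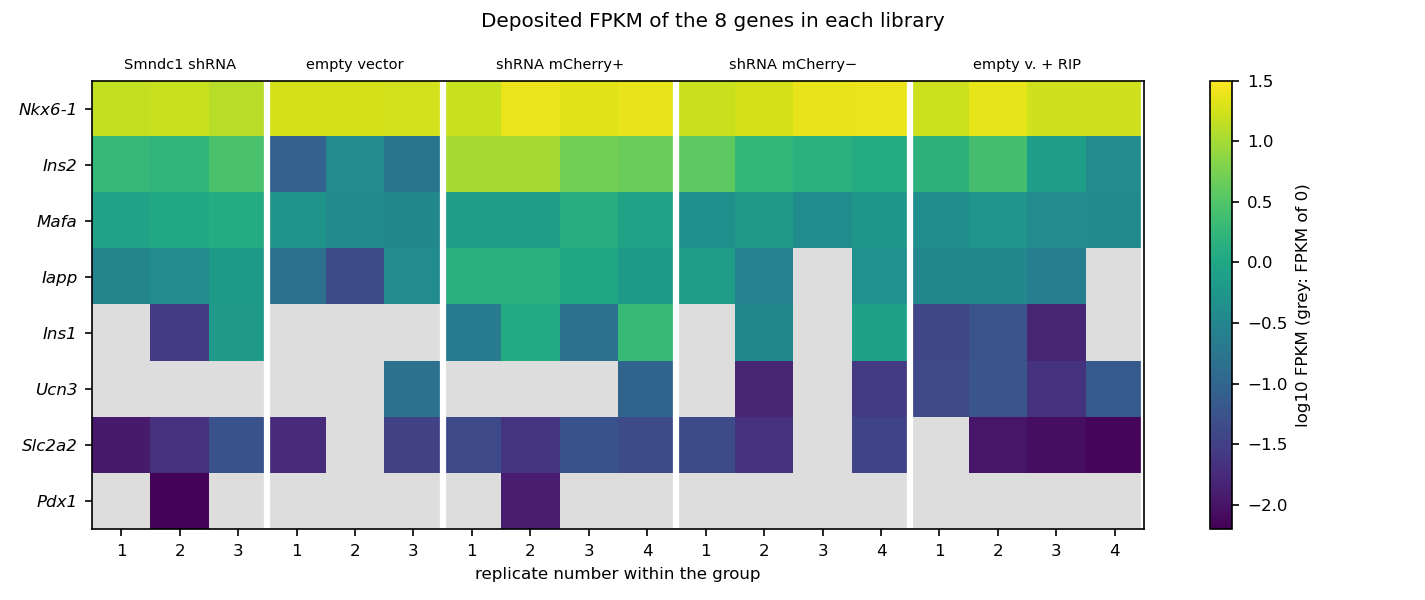
Deposited FPKM of each gene (rows) in each of the 18 libraries (columns, by replicate number within a group), coloured on a log10 scale, with grey for an FPKM of 0. The Nkx6-1 row is bright in every column, Ins2 is brightest in the mCherry-positive libraries (mean 7.65 FPKM), and the Pdx1 row is grey in 16 libraries.

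Ins2, the ancestral insulin gene, was higher in knockdown cells than in empty-vector cells. Its levels were 2.39, 2.21 and 3.63 CPM in knockdown libraries, against 0.123, 0.506 and 0.229 CPM in empty-vector libraries. Every knockdown library lay above every empty-vector library. The log2 fold change was 3.21 (SE 0.47), with an adjusted p of 0.0075 (edgeR's quasi-likelihood test, Benjamini-Hochberg over 18202 genes). Without empty-vector replicate 3 the call was lost at nearly the same size (3.06, adjusted p = 0.0556 by edgeR), in a setting that calls 181 genes in place of 2681. In bulk samples, more cells making a transcript and more transcript per cell cannot be told apart.

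In experiment 2, Ins2 was highest in mCherry-positive cells. These were selected on an insulin promoter, so the gate and the shRNA cannot be told apart there. It had 13.7, 13.5, 6.90 and 6.12 CPM in mCherry-positive libraries, 5.13, 2.33, 1.92 and 1.59 CPM in mCherry-negative libraries, and 2.06, 3.39, 1.00 and 0.518 CPM in reporter controls. The positive libraries overlapped neither other group, while negative and control libraries overlapped. Positive cells differed from reporter controls by 2.51 on the log2 scale (SE 0.51, adjusted p = 0.00701 by edgeR). Negative cells differed from reporter controls by 0.67 (SE 0.50, adjusted p = 0.371 by edgeR), which did not pass.

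Even where it was highest, insulin stayed a minor hormone transcript. Summed over both genes, insulin FPKM amounted to 0.0410% to 0.0753% of Gcg FPKM in mCherry-positive, 0.0208% to 0.0354% in mCherry-negative and 0.00672% to 0.0260% in reporter-control libraries. In experiment 1 the sum lay between 0.0232% and 0.0585% of Gcg FPKM in knockdown and between 0.00270% and 0.00612% in empty-vector libraries. Groups did not overlap in experiment 1, while in experiment 2 the negative range overlapped that of the reporter controls. The denominator also moved: Gcg averaged 15987 ± 2329 CPM in positive cells, against 9009 ± 2039 CPM in reporter controls (SD, n = 4 each; log2 fold change 0.83, SE 0.18, adjusted p = 0.00978 by edgeR).

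**Figure D2:**
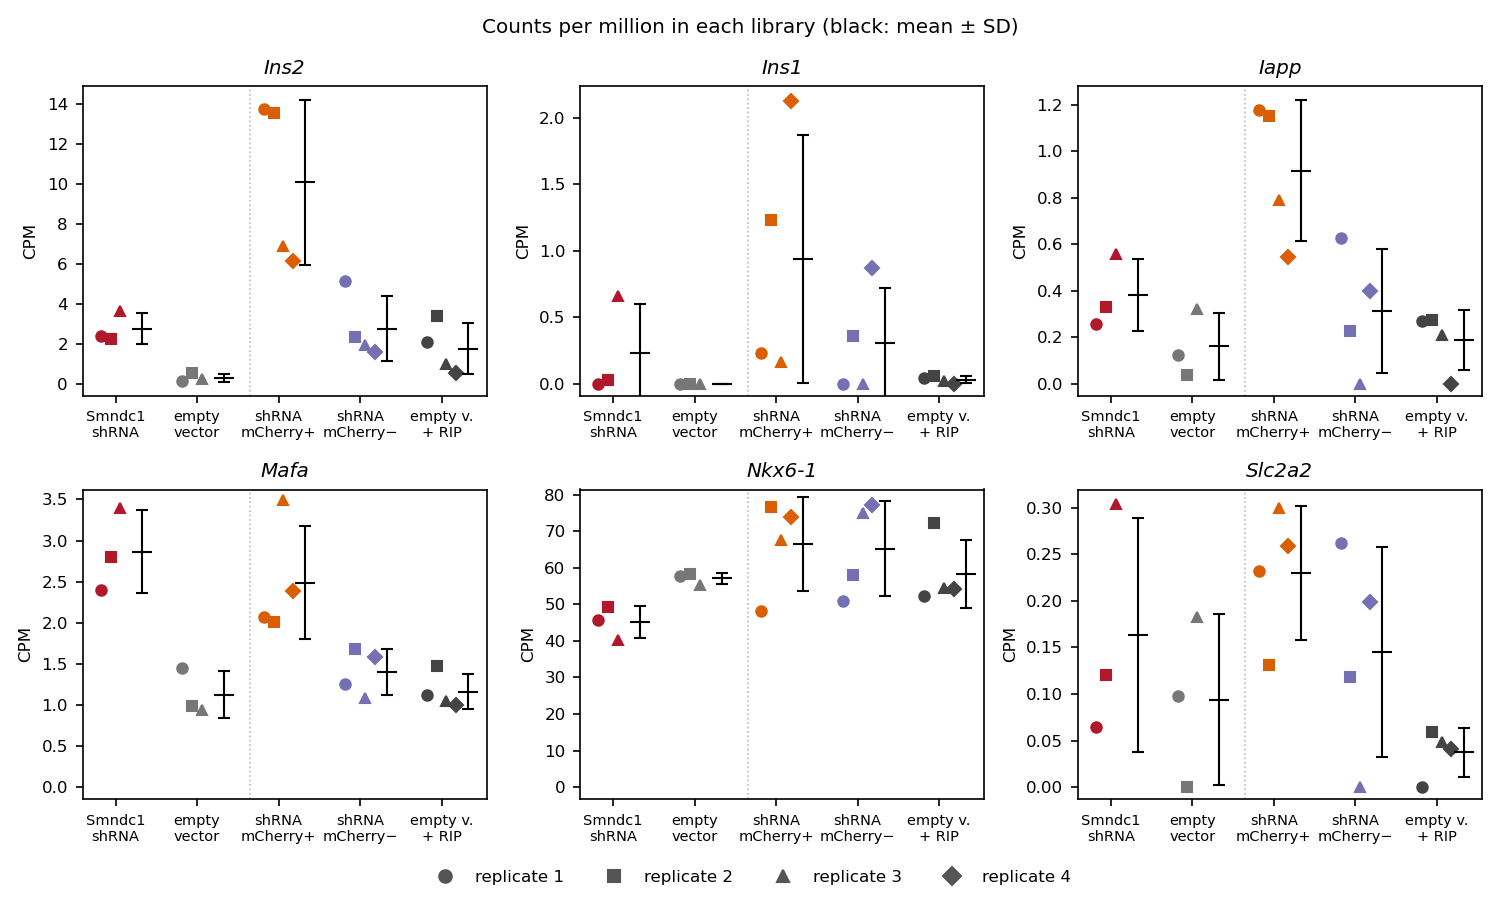
CPM of 6 genes in each library (coloured points, shaped by replicate number) with mean ± SD (black), grouped as Smndc1 shRNA and empty vector (left of the dotted line) and, with RIP-mCherry, shRNA mCherry-positive, shRNA mCherry-negative and empty vector (right). The knockdown libraries of Ins2 (2.21 to 3.63 CPM) lie above the empty-vector ones (0.123 to 0.506 CPM), and Ins1 spreads widely within groups.

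Ins1, the copied insulin gene, was uneven between libraries of the same group. In knockdown cells it had 0, 2 and 26 counts, against 0 in all 3 empty-vector libraries, where a count of 0 allows up to 0.0737 CPM in the shallowest. The groups overlapped, and 26 of the 28 counts came from knockdown replicate 3 (two-sided exact permutation p = 0.4, where 0.1 is the smallest possible). Without the filter on low counts edgeR called the gene (6.36 on the log2 scale, adjusted p = 0.000555), a value that depends on the prior count and rests on the same library. Knockdown replicate 3 also held the most Rn7sk of its group, at 8.82 CPM, against 4.38 and 2.57 CPM in the other knockdown libraries. The part of this in the Ins1 counts was not tested.

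In experiment 2, Ins1 had 11, 47, 6 and 74 counts in mCherry-positive libraries (0.232, 1.23, 0.164 and 2.13 CPM), 0, 30, 0 and 22 in mCherry-negative libraries, and 2, 6, 1 and 0 in reporter controls. Positive libraries lay above all controls, while the negative libraries fell on both sides of them. Positive cells differed from controls by 4.72 on the log2 scale (SE 1.13, adjusted p = 0.0142 by edgeR), measured against 9 control counts in all. The call held with each of the 8 libraries left out, with fold changes of 3.94 to 5.42 on the log2 scale. The gene passed the filter on low counts only through libraries with the shRNA, as no control held more than 6 counts. The calls are therefore no separate support beside these counts. Negative cells differed from controls by 3.25 (SE 1.19), which did not pass (adjusted p = 0.0771 by edgeR). It passed with DESeq2 (3.39, adjusted p = 0.0257), with edgeR without the filter on low counts (3.18, adjusted p = 0.0214) and with edgeR without mCherry-negative replicate 1 (3.71, adjusted p = 0.0181).

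The balance between the insulin genes was alike in same-numbered libraries of both gates. Ins1 made up 1.66%, 8.33%, 2.32% and 25.8% of the Ins1 and Ins2 counts in mCherry-positive replicates 1 to 4, and 0%, 13.2%, 0% and 35.5% in mCherry-negative replicates 1 to 4. Replicates 2 and 4 held the larger shares in both gates. The exact 95% binomial intervals were 20.8% to 31.3% for positive replicate 4 and 23.7% to 48.7% for negative replicate 4, against 0.832% to 2.95% for positive replicate 1 and at most 1.86% for negative replicate 1. Negative replicate 3, with 16 insulin counts, allowed a share of up to 20.6%. Reporter controls held 1.98%, 1.71%, 1.59% and 0%. In experiment 1 the share was 0%, 1.34% and 15.4% (exact interval 10.3% to 21.7%) in knockdown libraries and 0% in all empty-vector libraries. These intervals cover counting error only, and PCR copies are not independent molecules.

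**Figure D3:**
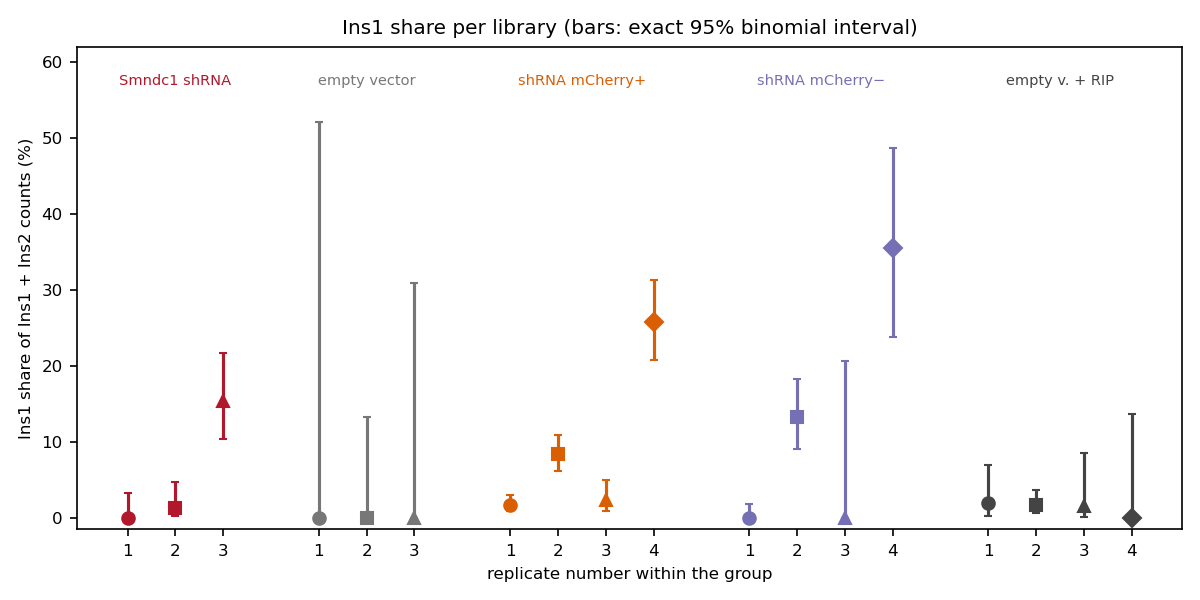
Share of Ins1 among Ins1 and Ins2 counts (percent, y axis) in each library (replicate number, x axis), with exact 95% binomial intervals as bars. Replicates 2 and 4 stand high in both mCherry-positive (8.33% and 25.8%) and mCherry-negative cells (13.2% and 35.5%), and knockdown replicate 3 stands above its group at 15.4%.

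Iapp, which encodes amylin, passed the test in mCherry-positive cells. It had 1.18, 1.15, 0.790 and 0.546 CPM in positive libraries, 0.628, 0.225, 0 and 0.397 CPM in negative libraries, and 0.271, 0.275, 0.211 and 0 CPM in reporter controls. Positive libraries did not overlap the controls, but the lowest positive library lay below the highest negative one. Positive cells differed from controls by 2.23 on the log2 scale (SE 0.65, adjusted p = 0.0326 by edgeR). This call was lost when any of 5 of the 8 libraries was left out (reporter-control replicates 1 or 3, positive replicates 1, 2 or 3), with edgeR adjusted p between 0.0554 and 0.0901. Negative cells differed from controls by 0.84 (SE 0.69, adjusted p = 0.413 by edgeR), short of the threshold. In experiment 1, Iapp had 12, 22 and 22 counts in knockdown libraries and 5, 2 and 14 in empty-vector libraries. The highest empty-vector library overlapped the knockdown group, and the difference of 1.25 (SE 0.65, adjusted p = 0.218 by edgeR) did not pass.

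Mafa is the basic leucine zipper factor that binds the insulin promoter of mature beta cells. It was higher in knockdown than in empty-vector cells, and in mCherry-positive cells than in reporter controls. It had 2.39, 2.79 and 3.40 CPM in knockdown libraries, against 1.45, 0.992 and 0.938 CPM in empty-vector libraries, with no overlap. This amounted to 1.35 on the log2 scale (SE 0.28, adjusted p = 0.0185 by edgeR). This call was lost without empty-vector replicate 2, empty-vector replicate 3 or knockdown replicate 2, with fold changes of 1.26, 1.23 and 1.36 on the log2 scale and edgeR adjusted p of 0.0731, 0.0938 and 0.0641.

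In experiment 2, Mafa had 2.06, 2.01, 3.49 and 2.39 CPM in mCherry-positive libraries, 1.26, 1.68, 1.08 and 1.59 CPM in mCherry-negative libraries, and 1.13, 1.47, 1.05 and 0.994 CPM in reporter controls. All positive libraries exceeded all others, and negative libraries overlapped the controls. Positive cells differed from controls by 1.09 on the log2 scale (SE 0.25, adjusted p = 0.0125 by edgeR), a call that held with each library left out. Negative cells differed from controls by 0.30 (SE 0.26, adjusted p = 0.441 by edgeR), which did not pass. In positive cells the gate and the shRNA cannot be told apart for Mafa.

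Nkx6-1, a homeodomain factor that adult beta cells keep, was well expressed in all groups. It had 45.7, 49.2 and 40.4 CPM in knockdown libraries, against 57.8, 58.1 and 55.4 CPM in empty-vector libraries. The groups did not overlap, with the knockdown lower, but the difference of -0.34 on the log2 scale (SE 0.12) missed the threshold with edgeR (adjusted p = 0.0772) and passed with DESeq2 (-0.34, adjusted p = 0.0451). In experiment 2 it had 48.1, 76.6, 67.6 and 74.0 CPM in positive, 50.8, 57.9, 75.0 and 77.3 CPM in negative and 52.2, 72.2, 54.4 and 54.2 CPM in reporter-control libraries. All 3 groups overlapped. The log2 fold changes against controls were 0.19 in positive cells (SE 0.17, adjusted p = 0.449 by edgeR) and 0.16 in negative cells (SE 0.17, adjusted p = 0.541 by edgeR).

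Pdx1, the homeodomain factor at the head of the beta cell programme, was at or near 0 throughout. It had 1 count in knockdown replicate 2, 1 count in mCherry-positive replicate 2 and 0 counts in the other 16 libraries. A count of 0 allows up to 0.0294 CPM in the deepest library and up to 0.361 CPM in the shallowest. The insulin and Mafa differences above were thus measured in libraries with almost no Pdx1 reads.

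Slc2a2, which encodes the glucose transporter GLUT2 of rodent beta cells, was a matter of a few counts. It had 11, 5, 11 and 9 counts in mCherry-positive libraries, 10, 10, 0 and 5 in mCherry-negative libraries, and 0, 6, 3 and 2 in reporter controls. In CPM, positive libraries lay at 0.131 to 0.300 and controls at 0 to 0.0589, with no overlap (two-sided exact permutation p = 0.0286, the smallest that 4 against 4 allow, not adjusted for the genes examined). The gene did not pass the filter on low counts, and without that filter edgeR gave a log2 fold change of 2.40 (SE 0.72, adjusted p = 0.0302). With positive replicate 2, 3 or 4 left out it passed the filter, only through libraries with the shRNA. There edgeR gave 2.64 (adjusted p = 0.0379), 2.28 (adjusted p = 0.0529) and 2.37 (adjusted p = 0.0518), so that only the first passed the threshold. Negative libraries overlapped the controls (exact permutation p = 0.143). In experiment 1 it had 3, 8 and 12 counts in knockdown and 4, 0 and 8 in empty-vector libraries, which overlapped (exact permutation p = 0.5, smallest possible 0.1).

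Ucn3, whose peptide product is a late marker of mouse beta cell maturity, was read in few libraries. It had 0, 0, 0 and 5 counts in mCherry-positive libraries, 0, 2, 0 and 1 in mCherry-negative libraries, and 3, 9, 2 and 5 in reporter controls. Values overlapped in both comparisons, with two-sided exact permutation p of 0.4 for positive cells and 0.0571 for negative cells. In experiment 1 it had 0 counts in the 3 knockdown libraries and 0, 0 and 10 in the empty-vector libraries (exact permutation p = 1.0, smallest possible 0.1). Without the filter on low counts edgeR gave -4.91 on the log2 scale in knockdown cells (adjusted p = 0.0569), resting on 1 empty-vector library. Against reporter controls it gave -1.87 in negative cells (adjusted p = 0.339) and -1.09 in positive cells (adjusted p = 0.569). All lay lower, but no difference passed the threshold at these counts.

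Counted together, 4 of the 8 genes passed the filter on low counts in experiment 1, and 2 of them (Ins2 and Mafa) were called higher in knockdown cells. Over all 18202 genes tested, 7.22% were called higher and 7.5% lower (14.7% in either direction). Groups did not overlap for 3 of the 8 genes, Ins2 and Mafa higher (beside 19.7% of all genes tested) and Nkx6-1 lower (beside 19.8%; 39.5% in either direction). In experiment 2, 5 of the 8 genes were tested, and 4 (Ins1, Ins2, Iapp and Mafa) were called higher in mCherry-positive cells than in reporter controls, beside 8.47% of all genes tested called higher and 8.92% lower (17.4% in either direction). These 4 and Slc2a2 did not overlap between those groups, beside 11.7% of all genes that lay higher without overlap (23.4% in either direction). Positive cells were gated on an insulin promoter, so the gate and the shRNA cannot be told apart for any of these genes. Ins1 entered the test only through counts in shRNA libraries. In mCherry-negative cells 0 of the 5 genes were called with edgeR, beside 13.9% of all genes (8.17% higher, 5.69% lower). Of these 5, 1 (Ins1) had an unadjusted p under 0.05 and 1 (Ins1) was called by DESeq2. None of the 8 stood clear of the controls there, beside 14.4% of all genes (7.24% higher, 7.2% lower). Positive and negative cells are compared with the same 4 reporter controls.

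**Figure D4:**
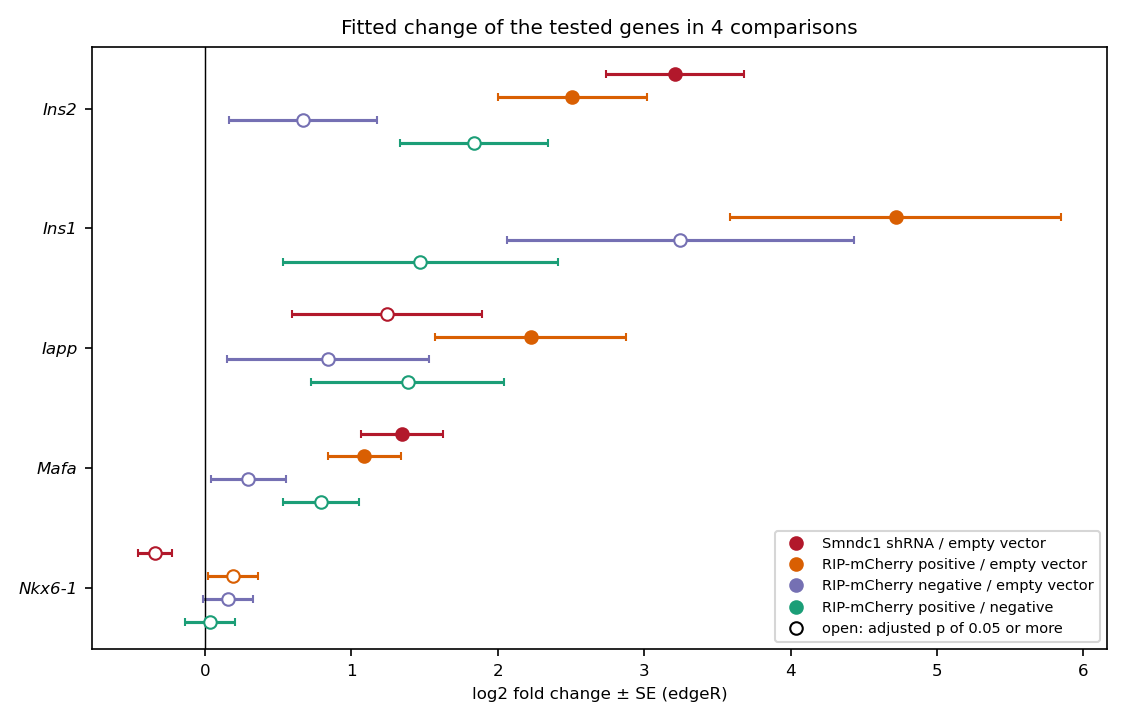
Fitted log2 fold change ± SE (x axis) of the 5 genes tested (rows) in 4 comparisons (colours), filled where the edgeR adjusted p is under 0.05 and open otherwise; RIP-mCherry groups marked "empty vector" are set against the reporter controls. Ins2 (3.21 and 2.51) and Mafa (1.35 and 1.09) are filled in knockdown and in mCherry-positive cells, and every mCherry-negative point is open.

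Between the sorted populations, all 4 of these genes lay higher in the positive cells at each replicate number. The sort itself used an insulin promoter, so for Ins1 and Ins2 this describes the gate. In the fit without pairing no gene was called of 18897 tested (0% called with edgeR, 2314 genes at an unadjusted p under 0.05, 290 called by DESeq2). Same-numbered positive and negative libraries deviated together, so the paired fit over these 8 libraries stands beside it. For Ins2 the unpaired log2 fold change was 1.84 (SE 0.51, adjusted p = 0.184 by edgeR) and the paired one 1.95 (SE 0.20, adjusted p = 0.000141 by edgeR). The paired fit called Ins1 as well (1.81, SE 0.46, adjusted p = 0.0266 by edgeR) and missed Iapp (1.5, SE 0.45, adjusted p = 0.0543 by edgeR). It also missed Mafa (0.71, SE 0.25, adjusted p = 0.092 by edgeR), whose unpaired value was 0.79 (SE 0.26, adjusted p = 0.249 by edgeR). It called 1517 genes in all.

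Pair by pair, Ins2 was 2.67, 5.80, 3.59 and 3.85 times as high in the positive as in the negative library, and Mafa 1.64, 1.20, 3.22 and 1.5 times. Both were thus higher in 4 of 4 pairs, and their groups did not overlap, beside 3.33% of all genes tested that lay higher without overlap (6.58% in either direction). Ins1 and Iapp were also higher in 4 of 4 pairs, with 0 counts in 2 negative libraries for Ins1 and in 1 for Iapp. Nkx6-1 was higher in 1 of 4 pairs, with ratios of 0.947, 1.32, 0.901 and 0.957. The alpha hormone gene Gcg was 1.28, 2.21, 1.88 and 1.72 times as high in the positive library, and Smndc1 lower, at 0.695, 0.516, 0.440 and 0.566 times. Their part in the differences of the 8 genes was not tested.

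**Figure D5:**
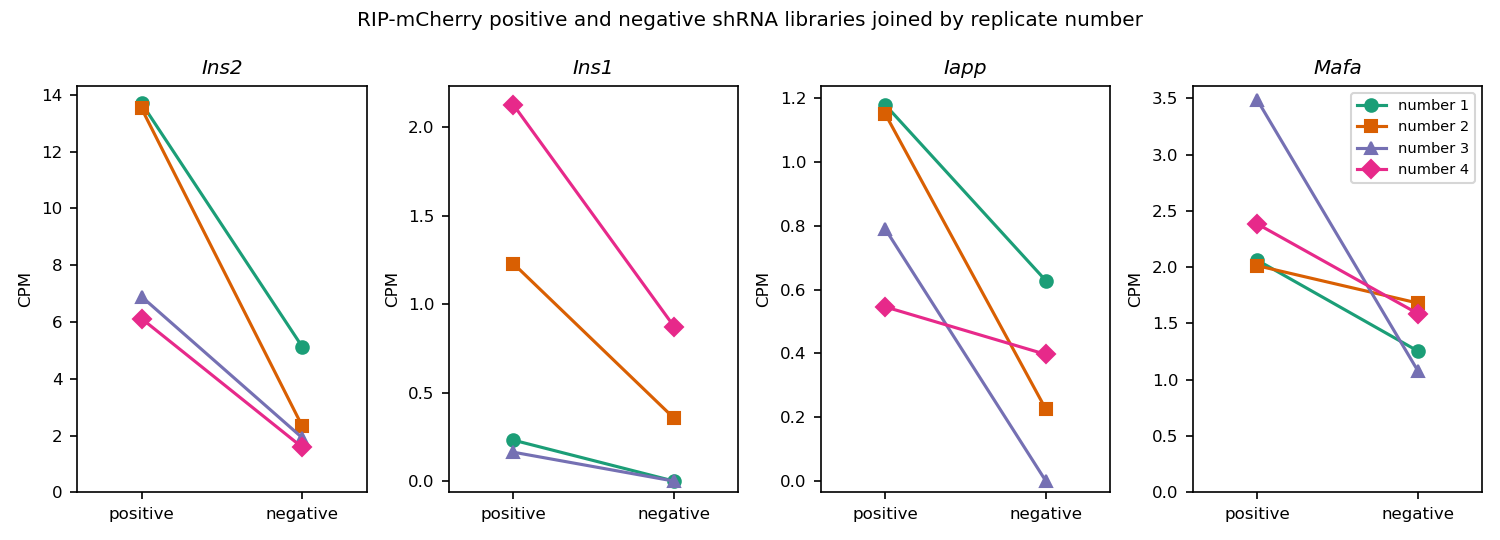
CPM (y axis) of Ins2, Ins1, Iapp and Mafa in mCherry-positive and mCherry-negative libraries, each line joining libraries of the same replicate number. Every line falls towards the negative library, and the slope differs between pairs, from 2.67 to 5.80 times for Ins2.

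Whether the shRNA changed these genes by different amounts in the 2 experiments was tested in a fit over all 18 libraries, as knockdown against empty vector minus mCherry-positive against reporter control. No gene was called of 20036 (0% called with edgeR, 861 at an unadjusted p under 0.05). The difference on the log2 scale was 0.70 (SE 0.78) for Ins2, 0.27 (SE 0.37) for Mafa and -0.97 (SE 1.04) for Iapp. The standard errors leave room for differences in either direction. For Nkx6-1 it was -0.52 (SE 0.23), with an unadjusted edgeR p of 0.0359 and an adjusted p of 0.998. The experiment, the reporter and the sort cannot be told apart in this contrast.

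The starting levels of Ins2 also differed between the experiments. Ins2 averaged 1.74 ± 1.27 CPM (SD, n = 4) in reporter controls and 0.286 ± 0.198 CPM (SD, n = 3) in empty-vector cells, tables that were normalized separately, so no test was made. Mafa averaged 1.16 ± 0.214 and 1.13 ± 0.281 CPM in the same groups. The reporter controls thus set Ins2 against a higher level, and Mafa against a similar one.

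Most factors that act on the insulin gene did not pass the test. Of 24 regulators listed, 18 were tested in experiment 1, with 2 called higher and 2 lower in knockdown cells (beside 7.22% and 7.5% of all genes) and a median log2 fold change of 0.051, against -0.0029 over all genes. Foxa1, a pioneer factor, was called higher (1.67, adjusted p = 0.0466 by edgeR), while Nkx2-2 (-0.71, adjusted p = 0.0178 by edgeR) and Foxa2 (-0.55, adjusted p = 0.0192 by edgeR), both needed for endocrine cells, were called lower. Foxa1 averaged only 0.451 CPM in knockdown and 0.144 CPM in empty-vector cells, with 19 counts in all in the latter. It passed the filter on low counts only through knockdown libraries, so its call is no separate support beside these levels. Neurod1, which binds E-boxes of the insulin promoter, averaged 127 ± 11.7 CPM in knockdown and 123 ± 7.57 CPM in empty-vector cells.

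In mCherry-positive cells 2 of the 19 regulators tested were called higher and 1 lower (beside 8.47% and 8.92% of all genes). The lower one was Foxa2 (-0.42, adjusted p = 0.0268 by edgeR). In mCherry-negative cells 1 was called higher and 1 lower (beside 8.17% and 5.69% of all genes), the lower one again Foxa2 (-0.51, adjusted p = 0.0183 by edgeR). The median over the regulators was 0.035 in positive and 0.044 in negative cells. These counts were close to the shares over all genes and show nothing particular to the regulators.

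Several genes that process and store insulin were called lower where Ins2 was called higher. Of 15 listed, 14 matched a symbol and 12 were tested, and 5 were called lower and 0 higher in knockdown cells (beside 7.5% and 7.22% of all genes), with a median log2 fold change of -0.62. Ptprn, a granule membrane protein, averaged 544 ± 110 CPM in knockdown and 1409 ± 329 CPM in empty-vector cells (SD, n = 3 each; log2 fold change -1.37, adjusted p = 0.0088 by edgeR). Pcsk2, the convertase that cuts prohormones, averaged 937 ± 270 CPM in knockdown and 1792 ± 389 CPM in empty-vector cells (-0.94, adjusted p = 0.0359 by edgeR). Scg5, the chaperone of that convertase (-0.83), Slc30a8, the granule zinc transporter (-0.72), and Chga, a granule core protein (-0.63), were called lower too. Many of these genes serve glucagon granules as well.

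The same 5 granule genes were called lower than in reporter controls in mCherry-negative cells (-0.96 for Pcsk2 and Scg5, -0.95 for Ptprn, -0.89 for Slc30a8, -0.65 for Chga). They were called lower in mCherry-positive cells too, with Ptprn2 (-0.99) as the sixth. Over all genes, 8.92% were called lower in positive and 5.69% in negative cells. The medians over the 12 genes were -0.60 in positive and -0.56 in negative cells, beside 0.0011 and -0.009 over all genes. Pcsk1, the other prohormone convertase, did not pass the filter on low counts.

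Of 19 listed genes of glucose sensing and secretion, 18 matched a symbol and 13 were tested. In knockdown cells 1 was called higher (beside 7.22% of all genes), Nnat (1.3, adjusted p = 0.0431 by edgeR), and 3 lower (beside 7.5%), among them Prlr, the prolactin receptor (-1.36), and Cacna1d, a calcium channel (-0.59). In mCherry-positive cells Nnat was again called higher (1.80), and Gjd2, which codes for the gap junction protein of beta cells (-1.48), Prlr (-1.0) and Cacna1d (-0.61) were called lower. In mCherry-negative cells Nnat was called higher (2.08), and Gjd2 (-1.34), G6pc2 (-1.08) and Prlr (-0.99) lower. Over all genes, 8.47% were called higher and 8.92% lower in positive cells, and 8.17% higher and 5.69% lower in negative cells. No gene of the 3 lists was called between positive and negative cells with edgeR in the unpaired fit.

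Some markers of other cell types differed between the groups too. The 4 duct markers summed to 23.6 to 33.6 CPM in knockdown and 12.1 to 17.0 CPM in empty-vector libraries. They summed to 35.0 to 78.5 CPM in mCherry-positive, 18.6 to 25.3 CPM in mCherry-negative and 10.2 to 14.8 CPM in reporter-control libraries, so negative libraries also lay above the controls, where Ins2 overlapped. Spp1 was the 1 duct marker called higher in knockdown (1.87, adjusted p = 0.0088 by edgeR) and in positive cells (2.77, adjusted p = 0.00361 by edgeR), and Muc1 the 1 in negative cells (1.82, adjusted p = 0.0343 by edgeR). In experiment 2 Muc1 passed the filter on low counts only through libraries with the shRNA, with at most 0.196 CPM in a reporter control. Its call is therefore no separate support beside these levels. In each comparison 3 duct markers were tested. Sox9 was called in none, at 0.46 in knockdown, -0.04 in positive and 0.28 in negative cells. Spp1 alone averaged 43.0 CPM in positive cells. The 5 acinar markers summed to 0.711 to 1.13 CPM in knockdown and 0.0778 to 0.252 CPM in empty-vector libraries. Cel, the 1 acinar marker tested, was called higher (3.66, adjusted p = 0.0088 by edgeR). It passed the filter on low counts only through knockdown libraries, as empty-vector cells held 7 counts in all. Its call is therefore no separate support beside these levels. In mCherry-negative cells Ghrl (epsilon cells, 1.24), Cd74 (leukocytes, 1.46), Pecam1 (endothelium, 1.61) and Col1a1 (fibroblasts, 1.71) were called higher than in reporter controls. Their edgeR adjusted p lay between 0.0219 and 0.0455. Ghrl, Cd74 and Pecam1 were each the only marker tested of their cell type. The other fibroblast marker tested, Col1a2, lay lower and was not called (-0.55, adjusted p = 0.293 by edgeR). In mCherry-positive cells Col1a1 was called higher (2.09, adjusted p = 0.0156 by edgeR). Col1a2 was not called there (0.34, adjusted p = 0.523 by edgeR). In experiment 2 Col1a1 passed the filter on low counts only through libraries with the shRNA. Reporter controls held 33 counts of Col1a1 in all, with at most 0.259 CPM in a library. Its calls in positive and negative cells are therefore no separate support beside these levels. Over all genes, 7.22% were called higher in knockdown, 8.47% in positive and 8.17% in negative cells. The part of other cell types in the Ins1, Ins2, Iapp and Mafa differences was not tested.

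Among the genes that could be ranked, those with a pattern most like that of Ins2 were outside the 8. Likeness was the root mean square difference over the 18 libraries of log2(CPM + 0.5), centred on the empty-vector mean of each experiment. The 11933 genes ranked were tested in both experiments and averaged at least 1 CPM in experiment 2, with predicted genes left out. The closest were Pianp (0.50), Dlk2 (0.56), Speg (0.56), Oxtr (0.58) and Pvalb (0.59), beside a median of 1.54 over all genes ranked. Mafa stood at 1.01, rank 188, and Nkx6-1 at 1.54, rank 6072. Iapp, too low to be ranked, had a distance of 1.00, a value that depends on the added 0.5 at such low CPM. The other distances depend on it too, as Ins2 itself averaged 0.286 CPM in empty-vector cells. The centred mean of Ins2 in knockdown cells was 2.05, beside a fitted log2 fold change of 3.21. Ins1, Pdx1, Slc2a2 and Ucn3 did not pass the filter in experiment 1 and could not be ranked.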

How the data were processed

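The deposited tables, 1 pair for each experiment, hold raw read counts per gene and FPKM values made by the authors. The submitters' processing notes name GRCm38/mm10 as the build, and DESeq2 1.30.0, STAR 2.7.5a and Picard 2.19.2 as tools, with no roles. The counting program is not given in the sources used. Per the labels' protocols, libraries were stranded mRNA, read as 75-base paired ends.

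Genes passing filterByExpr were TMM-scaled and tested in R 4.3.3 with edgeR 4.0.16 (quasi-likelihood test, Benjamini-Hochberg over all genes tested, threshold 0.05). Each experiment had 1 fit of 6 or 12 libraries, and the difference between them a fit of 18. Genes below the filter were described by counts, with 3 counts as the limit a count of 0 allows, and tested by two-sided exact permutation of CPM. FPKM was used only to compare levels between genes. Replicate numbers were taken to pair the positive and negative libraries. Deviations from the group means of same-numbered libraries correlated at 0.249 to 0.740, all 4 pairs over 0.1. Libraries with different numbers correlated at -0.607 to 0.415, with 2 of 12 over 0.1. The highest of these, negative 2 with positive 4, exceeded the lowest same-numbered pair, number 3. The pairing comes from the data, since the labels give only the numbers.

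The genes, lists, markers and tests were chosen with earlier results of these data known. Named genes are the 8 genes, Smndc1 and Gcg in every library, per list the called genes with the smallest p (up to 6 per comparison), and the 5 genes most like Ins2. Some genes of this rule are not reported here. Neurod1, Pcsk1, Gc, Rn7sk and called markers of other cell types were named in addition, after their values were seen. Alternatives were RLE scaling, no filter, DESeq2 1.42.0, a replicate block, only the groups compared, and leaving out libraries. The fit was checked on simulated counts.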

Additional observations from a re-analysis of the deposited data

Results flagged for a closer look

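In 3 of 22 groups of 4 libraries examined for the 8 genes, 1 library lay far from the other 3. Chance gives this in about 1 group of 20 for measured values; the rate does not hold for Pdx1 and Ucn3, where the other 3 libraries are at 0. Nkx6-1 had 72.2 CPM in reporter-control replicate 2, against 52.2 to 54.4 CPM in the other reporter controls. Pdx1 had 0.0262 CPM in mCherry-positive replicate 2, a single count, with 0 in the other positive libraries. Ucn3 had 0.144 CPM in mCherry-positive replicate 4, from 5 counts, with 0 in the other positive libraries.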

How the results depend on the processing

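Over 25 fold changes and differences of the tested genes under the alternatives, 318 of 344 values kept their direction and their side of the threshold. With 1 library left out, 3 results that missed the threshold turned sign: Nkx6-1 between positive and negative cells (-0.061 to 0.16), and the differences between experiments of Iapp (-1.47 to 0.034) and Ins1 (-1.73 to 2.50). Nkx6-1 in negative cells against controls turned to -0.11 without negative replicates 3 and 4. The cause was not tested.

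Counts of called genes depended on the setting. Knockdown against empty vector gave 2681 genes, 4165 without the filter, 4070 with DESeq2 and 181 to 3336 with 1 library left out, with 0 to 2 of the 8 genes called. Negative cells against controls gave 2620 genes, 1289 with only those libraries, 4 without negative replicates 3 and 4 (an alternative chosen after seeing the data) and 159 to 5831 with 1 library left out, with 0 to 1 of the 8. Of the 8, 1 (Ins1) was called there without the filter or with DESeq2. Positive cells against controls gave 3286 genes, 1258 to 3586 with 1 library left out, with 3 to 4 of the 8. Positive against negative cells gave 0 genes, 150 without the filter (1 of the 8, Ins2), 290 with DESeq2 and 0 to 517 with 1 library left out, with 0 to 1 of the 8. The difference between experiments gave 0 genes and 5 without the filter.

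With the replicate block over all 12 libraries, positive against negative cells gave 78 genes (1 of the 8, Ins2), and with the block over only their 8 libraries, an alternative chosen after seeing the data, 1517 genes (2 of the 8, Ins1 and Ins2). The same block gave 4597 genes in negative cells (1 of the 8, Ins1, at 2.78 with adjusted p = 0.0372 by edgeR) and 5079 in positive cells against controls, where the libraries share only a number: same-numbered libraries correlated at -0.363 to 0.611 and at -0.054 to 0.518. In experiment 1 (-0.033 to 0.323) the block gave 2813 genes and changed no call of the 8. Levels of a few counts (Ins1, Slc2a2, Ucn3) limit what depth can show.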
